A study of Homo sapiens with 16 samples.

Results

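The comparison of irinotecan alone with vehicle in U-251 MG cells rests on 8 of the 16 libraries of the series, chosen by their treatment labels and by no measured value. U-251 MG is an established human glioblastoma line, and its cells had been given irinotecan at 0.6 µM for 48 h, starting 24 h after seeding, or the solvent DMSO for the same time, with 4 libraries in each group. The other 8 libraries, 4 with simvastatin at 0.06 µM together with irinotecan at 0.6 µM (the combination) and 4 with simvastatin at 0.06 µM alone, entered the same statistical model and gave a second measurement of irinotecan. All groups shared the line, the medium with 10% serum, RNA prepared from trypsinised cells, and poly(A) selection. In each group the library whose title has no replicate number is called replicate 4 here, and the rest are the 12 numbered libraries. The labels name no separate cultures, so the p-values measure the spread between these libraries, which may be technical, and the line is a single tumour's culture without the vessels and immune cells of a brain.

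Irinotecan is a prodrug. Carboxylesterases release its active form, which holds topoisomerase I on DNA in the middle of its cut. A replication fork or a transcribing polymerase that meets the trapped enzyme can turn the cut into a lasting break, and the damage signal that follows slows the cell cycle. Cells with working p53 then induce genes such as CDKN1A, whereas U-251 is known to carry a mutant p53.

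Library totals were 24375152 to 32318888 counts with irinotecan and 24478638 to 31932971 with DMSO. On the first principal component of all 16 libraries, with 25.89% of the variance, the 8 libraries that had received irinotecan lay apart from the 8 that had not. Mitochondrially encoded genes took 3.76% ± 0.39 of counts with irinotecan and 3.68% ± 0.95 with DMSO (SD, n = 4 each; two-sided exact permutation test, adjusted p = 0.914). Of 11 markers of astrocytes and glioma 9 were tested, and GFAP, VIM, NES and SOX2 were all detected in every library. Of 14 immune cell markers 2 were tested. The 4 with a count of 0 in all 8 libraries were CD3E, CD3D, MS4A1 and TYROBP, and the rest had counts in at least 1 of them.

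Of 16647 genes tested with edgeR's quasi-likelihood test, 24.1% had an adjusted p under 0.05 (Benjamini-Hochberg) and count as called. Of these 4015 genes, 2064 were higher with irinotecan (12.4% of the genes tested) and 1951 were lower (11.7%). This split rests on TMM scaling, which sets the typical gene at no change: scaled by library totals alone, 3789 were higher and 1079 lower, at a median log2 fold change of 0.075 over all genes, against -0.00021 with TMM. Most changes were small, with a median absolute log2 fold change of 0.28 among called genes. Larger ones were mostly increases, since 204 called genes were at least 2-fold higher and 47 at least 2-fold lower. The 4 libraries of each group did not overlap in 23.4% of the genes tested. Calls came more often at high levels, with 32.8% of genes called at a mean log2 CPM (counts scaled to library size) of at least 5 and 18.8% below it. The counts of gene lists that follow are to be read beside these shares. The lists and their members were chosen with earlier results of these data known, so a larger share in a list is a description and no test.

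**Figure D1:**
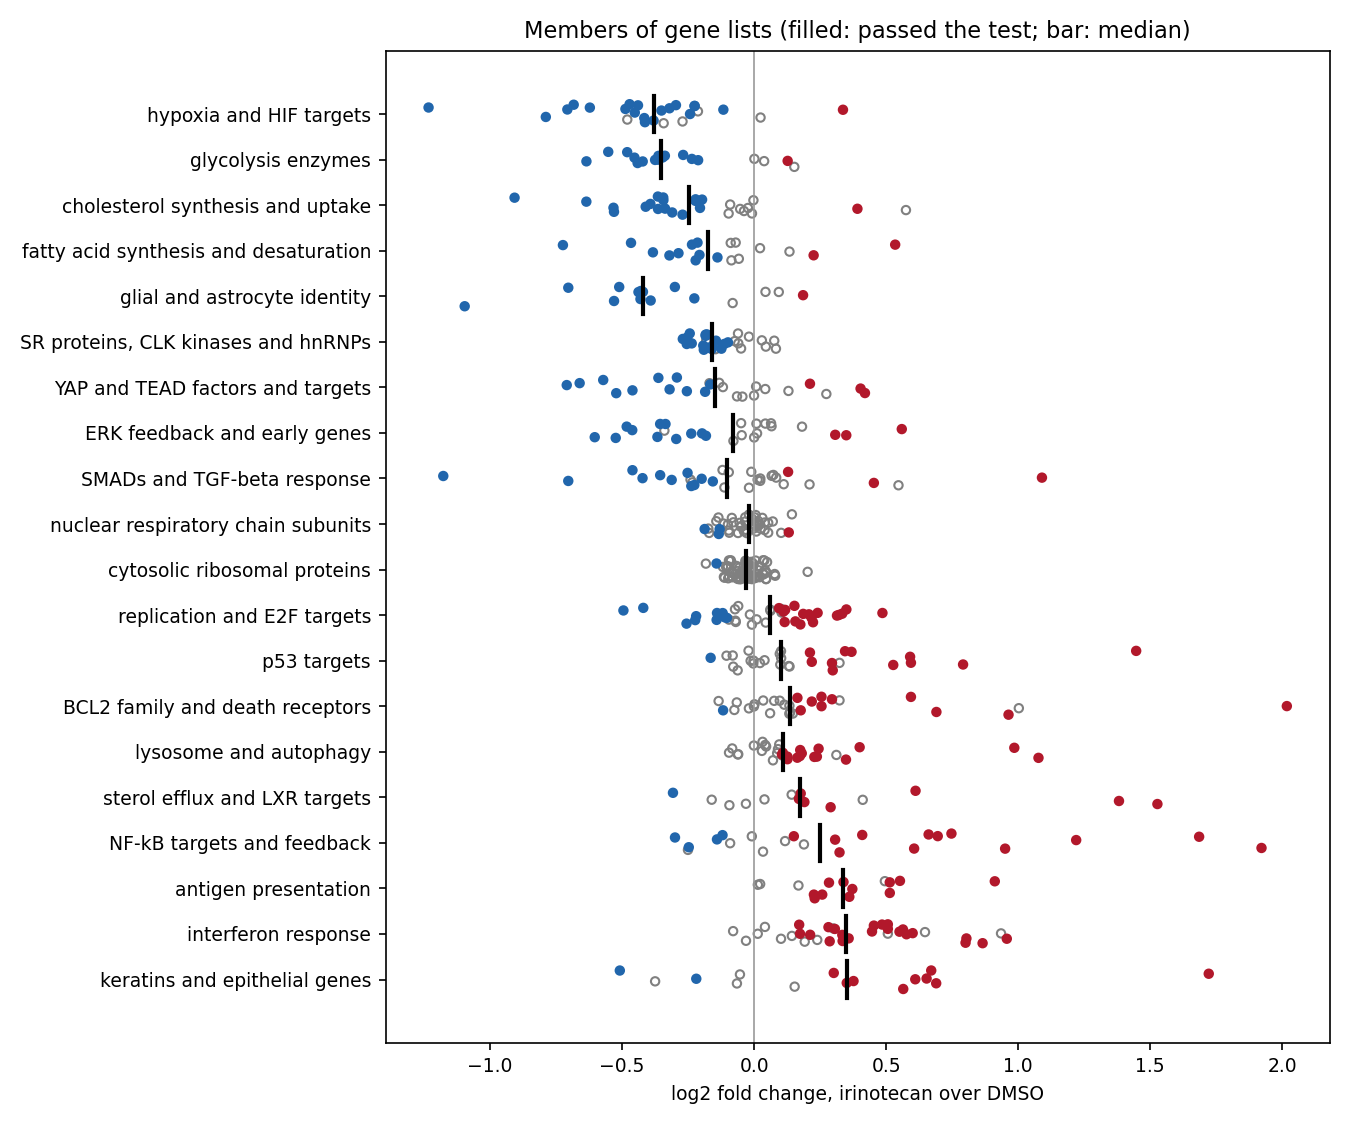
Log2 fold changes, irinotecan over DMSO, of every tested member of 20 gene lists. Filled points passed the test (adjusted p under 0.05), open points did not, and each bar is the list's median; hypoxia, glycolysis, cholesterol synthesis and glial lists lie to the left of 0, and interferon, antigen presentation and keratin lists to the right.

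TOP1, the gene of the target enzyme, was at 185, 193, 193 and 191 CPM in irinotecan replicates 1 to 4, against 176, 171, 183 and 183 CPM in DMSO replicates 1 to 4 (ENSG00000198900, chromosome 20, 41028818 to 41124487, GENCODE 29 on GRCh38, as for all genes). The 4 irinotecan libraries were all above the 4 DMSO libraries, but the difference was small and missed the threshold, with a log2 fold change of 0.093 ± 0.039 (standard error here and below) and an adjusted p = 0.0797. TOP1 was called higher scaled by library totals (0.17, adjusted p = 0.000784, edgeR) and in the 12 numbered libraries with a replicate block (0.10, adjusted p = 0.0206). Of 17 topoisomerase genes and genes that repair trapped topoisomerase, 2 rose and 4 fell (7 and 3 scaled by library totals). TDP1, the phosphodiesterase that clips topoisomerase I off DNA, was at 44.5 ± 1.15 CPM with irinotecan and 52.5 ± 2.02 CPM with DMSO (SD, n = 4 each, as throughout), a log2 fold change of -0.24 ± 0.044. The ligase gene LIG3, which seals the repaired end, changed by -0.36 (adjusted p = 1.77e-05) and fell too. Of the nuclease subunits that cut stalled forks, EME1 rose (0.35 ± 0.081) and MUS81 fell (-0.20 ± 0.062; not called without DMSO replicate 1, at -0.17, or irinotecan replicate 4, at -0.16).

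Of 17 genes listed for irinotecan activation, inactivation and export, 12 were tested and 1 was called. CES1, UGT1A1, UGT1A6 and UGT1A9 had a count of 0 in all 8 libraries and were not tested. CES2, an esterase that activates the drug, had 37.0, 38.5, 38.8 and 34.2 CPM in irinotecan libraries, against 40.1, 38.0, 41.3 and 38.1 CPM in DMSO libraries, and the groups overlapped (log2 fold change -0.083 ± 0.05, adjusted p = 0.256). The called gene was GUSB, a lysosomal glucuronidase that can free the active drug from its glucuronide (0.13 ± 0.044, adjusted p = 0.0345), and its call was lost without DMSO replicate 1, 3 or 4 (0.12, 0.11 and 0.12) or irinotecan replicate 1 or 2 (0.095 and 0.11). The export pump gene ABCB1 was under 1 CPM in every library and was not called (adjusted p = 0.228).

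CDKN1A and GDF15 rose, and how many of the other p53 targets rose depended on the scaling. CDKN1A, which encodes the CDK inhibitor p21, was at 78.8, 77.8, 77.6 and 76.3 CPM with irinotecan, against 51.5, 50.0, 52.9 and 51.7 CPM with DMSO. GDF15, a stress-induced cytokine gene, was at 25.7, 25.1, 24.5 and 23.6 CPM with irinotecan, against 10.1, 7.95, 8.65 and 9.46 CPM with DMSO (ENSG00000130513, chromosome 19, 18374731 to 18389176). In both genes the lowest irinotecan library stood well above the highest DMSO library, and the within-group SD was about a CPM in each group. Of 29 p53 targets 11 rose and 1 fell (median log2 fold change 0.10), and 17 were not called. Scaled by library totals, 18 rose and 1 fell (median 0.18). Beside the 2 genes above, the risen members with the smallest p were SESN2 (0.53 ± 0.063), a stress-induced brake on mTORC1, the BH3-only gene PMAIP1 (0.29 ± 0.042), TNFRSF10B (0.22 ± 0.037), a death receptor gene, and FDXR (0.37 ± 0.059), which encodes a ferredoxin reductase. Named after their values were seen, the classical targets ZMAT3 (-0.021), DDB2 (0.039), XPC (0.10) and RRM2B (-0.013) were among those not called with TMM. XPC was called higher scaled by library totals (0.17, adjusted p = 0.00822, edgeR). PLK2 was the member that fell (-0.16). Of 23 CDK inhibitor, cyclin and CDK genes 9 rose and 3 fell. CDK1, the kinase that drives entry into mitosis, was at 215 ± 6.39 CPM with irinotecan and 167 ± 4.99 CPM with DMSO (0.37 ± 0.034), and its partner CCNB2 rose as well (0.19 ± 0.036).

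**Figure D2:**
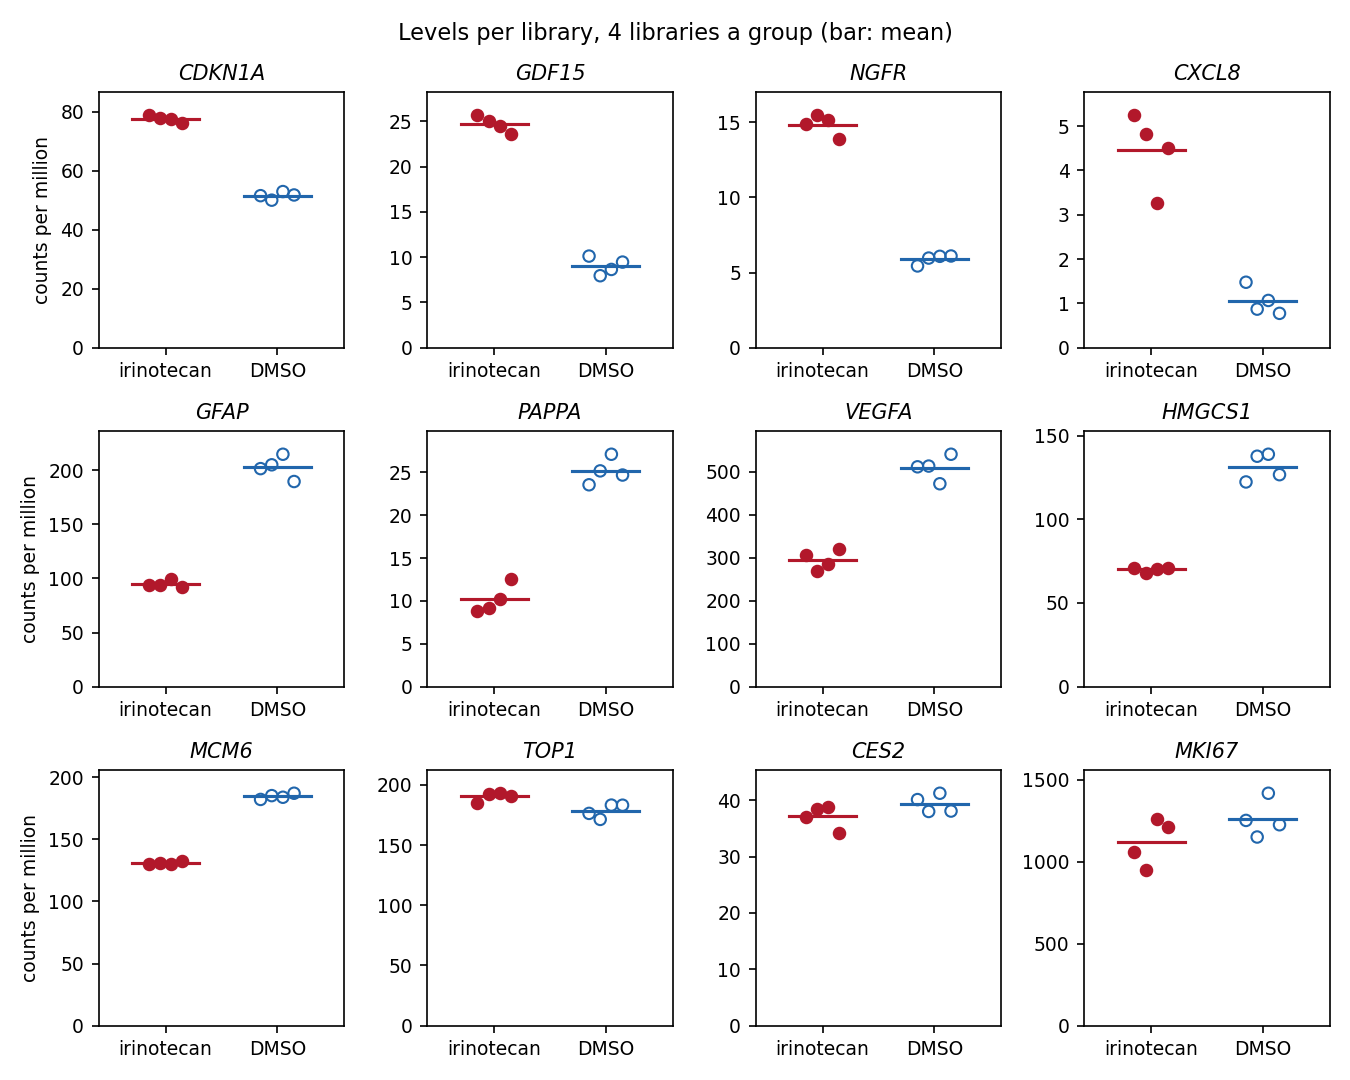
CPM of 12 genes in each library, on linear axes that start at 0. Irinotecan libraries (filled) are left of DMSO libraries (open) in each panel, and each bar is the mean of 4; the groups do not overlap in any panel but CES2 and MKI67.

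Replication genes went both ways. Of 40 tested, 17 rose, 10 fell and 13 were not called. Scaled by library totals, 22 rose and 5 fell, so the balance of the directions depended on the scaling. With TMM the count of higher genes was 10 without DMSO replicate 2 and 11 without DMSO replicate 4 or irinotecan replicate 1 or 2. That of lower genes was 6 without DMSO replicate 1. MCM6, a subunit of the helicase that is loaded on origins, was at 130.2, 131, 130.3 and 133 CPM with irinotecan, against 182, 185, 184 and 187 CPM with DMSO. MCM5, another subunit, was at 168, 170.4, 164 and 164 CPM with irinotecan, against 234, 216, 221 and 222 CPM with DMSO. Neither gene's groups overlapped, and the log2 fold changes were -0.50 ± 0.033 and -0.42 ± 0.034. By contrast CDT1, the factor that loads this helicase, rose by 0.49 ± 0.051, as did ORC6 of the origin recognition complex (0.35 ± 0.049), the clamp loader subunit RFC3 (0.33 ± 0.04) and RRM2, a subunit of the enzyme that makes deoxynucleotides (0.32 ± 0.033). Of the 6 subunits of that helicase 5 fell, those beside MCM6 and MCM5 by small amounts (-0.11 to -0.14). MCM3 was not called by edgeR (-0.073) but was called lower by DESeq2 (-0.080, adjusted p = 0.0117). Among 34 damage signalling and repair genes 10 rose and 4 fell (17 and 3 scaled by library totals). The resection nuclease gene EXO1 rose, at 58.8 ± 1.15 CPM with irinotecan and 43.6 ± 0.832 CPM with DMSO. The helicase gene BLM (0.40 ± 0.044) and the Fanconi anaemia genes FANCI (0.28 ± 0.036) and FANCD2 (0.31 ± 0.048) rose too, while the mismatch repair gene MSH6 (-0.28 ± 0.038) and the end-joining gene XRCC6 (-0.18 ± 0.033) fell.

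MKI67, a marker of cycling cells, was at 1058, 949.7, 1258 and 1211 CPM in irinotecan libraries, against 1251, 1150.2, 1417 and 1225 CPM in DMSO libraries. The groups overlapped and the gene was not called (-0.17 ± 0.10, adjusted p = 0.261). Of 36 G2/M, spindle and mitosis genes 11 rose and 6 fell (17 and 5 scaled by library totals), so that the list held members of both directions. MAD2L1 of the spindle checkpoint (0.25 ± 0.036), HMMR (0.28 ± 0.042) and the phosphatase gene CDC25B (0.23 ± 0.035) rose, and the kinetochore motor gene CENPE (-0.40 ± 0.047) and the mitotic kinase gene PLK1 (-0.28 ± 0.042) fell. Histone genes of the replication-dependent kind, whose mRNAs mostly lack a poly(A) tail and are poorly caught by poly(A) selection, were called in 2 of 22, both lower. Linker histone genes outside that class fell too. H1F0, the linker histone gene of non-dividing, differentiated cells, was at 187, 190.1, 186 and 182 CPM with irinotecan, against 345, 332, 371 and 321 CPM with DMSO, and H1FX changed by -0.57 ± 0.05.

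Very long genes were more often lower than higher. Topoisomerase I relieves the twist that transcription puts into DNA, and long genes are known to need it most, so genes were grouped by the length of their annotated span. Of 651 tested genes over 300 kb, 198 fell and 50 rose, so that 79.8% of those called were lower, with a median log2 fold change of -0.10. Between 100 and 300 kb 385 of 2356 fell and 293 rose, between 30 and 100 kb 557 of 4812 fell and 715 rose, between 10 and 30 kb 424 of 4190 fell and 654 rose, and up to 10 kb 386 of 4600 fell and 351 rose. Lower calls thus outnumbered higher ones most in the longest group, and the medians of the other groups lay between -0.02 and 0.02. Scaled by library totals alone, 64.9% of the called genes over 300 kb were lower, and 69.0% were with TMM in the longest of 10 equal groups of genes. The shortest of those 10 groups was close to it, with 86 lower and 43 higher calls (66.7% lower) and a median of -0.056, against -0.050 in the longest, so that a majority of lower calls was not confined to long genes. With simvastatin present in both groups, 144 genes over 300 kb were lower and 70 higher (67.3% of calls lower). Genes up to 10 kb were close to that, with 542 lower and 299 higher (64.4%). Between 100 and 300 kb 40.3% of the calls there were lower, against 56.8% without simvastatin. In the longest of the 10 equal groups 285 were lower and 242 higher with simvastatin (54.1% lower), and in the shortest 74.7% of calls were lower. Genes over 300 kb together took 2.77% ± 0.14 of counts with irinotecan and 3.04% ± 0.11 with DMSO (SD, n = 4 each), and these shares did not overlap.

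**Figure D3:**
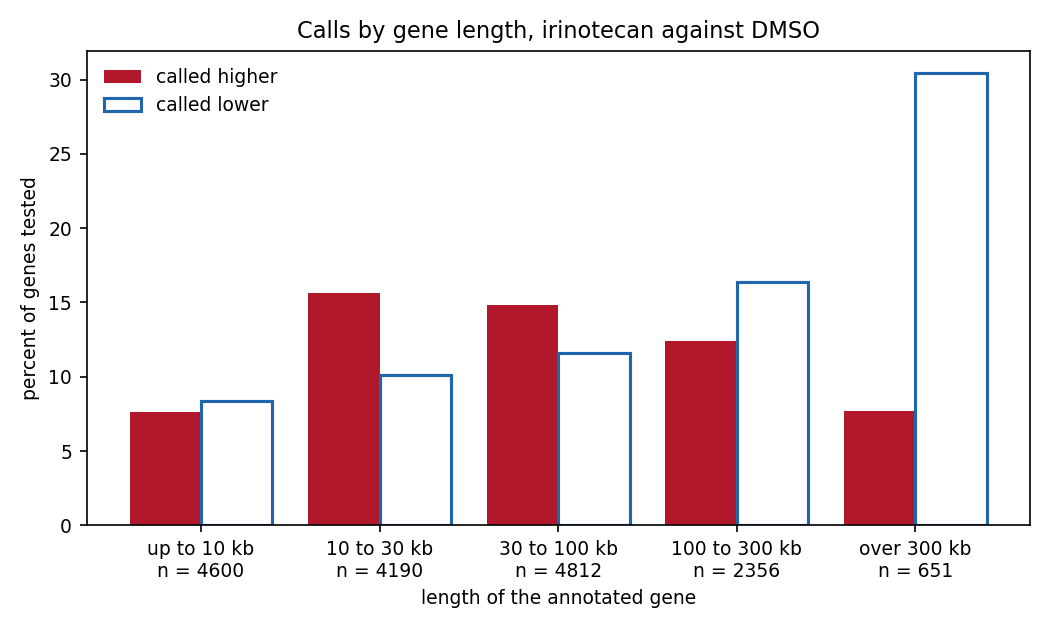
Percent of tested genes called higher (filled) and called lower (open) with irinotecan, by the length of the gene's annotated span; the number of genes tested is written under each group. Over 300 kb the lower calls exceed the higher ones, 198 against 50 of 651 genes.

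The long genes with the smallest p were led by ZNF423 and KCNIP1, which were also among the 15 lowest of all. ZNF423, a zinc finger gene of 370.4 kb that acts in neural and adipose progenitors, was at 10.7, 11.1, 7.71 and 7.89 CPM with irinotecan, against 22.8, 23.4, 25.0 and 23.1 CPM with DMSO (ENSG00000102935, chromosome 16, 49487524 to 49857919). KCNIP1, a calcium-binding partner of Kv4 potassium channels, was at 3.98, 4.08, 3.58 and 5.06 CPM with irinotecan, against 12.4, 10.6, 12.4 and 11.6 CPM with DMSO (ENSG00000182132, chromosome 5, 170353487 to 170736632). In both genes the lowest DMSO library was more than 2-fold above the highest irinotecan library. The next 6 by p had smaller changes at higher counts: the adhesion genes KIRREL3 (-0.71 ± 0.052) and NTM (-0.54 ± 0.04), the glial transcription factor gene NFIB (-0.53 ± 0.039), the glycosyltransferase gene GALNT17 (-0.53 ± 0.04), the neuroligin gene NLGN4X (-0.53 ± 0.04) and the cadherin gene CDH4 (-0.61 ± 0.047). Length did not fix the direction. RYR2, a calcium release channel gene of 792 kb and 1 of the 15 highest genes, was at 2.42, 2.84, 3.23 and 2.51 CPM with irinotecan, against 1.26, 0.828, 1.14 and 1.00 CPM with DMSO.

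Genes of the hypoxia response fell together. Cells degrade HIF transcription factors while oxygen is present, and when oxygen is short HIF binds a short DNA core, ACGTG, and switches on glucose uptake, glycolysis, mitophagy and vessel growth. Promoters of 3 members that carry that core are shown: BNIP3 and P4HA1, which were among the members with the smallest p, and CA9, which had the lowest log2 fold change of the list. They are the 250 bases before and 50 after the RefSeq start on GRCh38.p14 (BNIP3 chr10:131981874-131982173, minus strand; P4HA1 chr10:73096817-73097116, minus strand; CA9 chr9:35673678-35673977, plus strand), read 5′ to 3′ on the gene's strand, with ACGTG on either strand in capitals (CACGTG is the core on both strands at once, and is also an E-box).
BNIP3: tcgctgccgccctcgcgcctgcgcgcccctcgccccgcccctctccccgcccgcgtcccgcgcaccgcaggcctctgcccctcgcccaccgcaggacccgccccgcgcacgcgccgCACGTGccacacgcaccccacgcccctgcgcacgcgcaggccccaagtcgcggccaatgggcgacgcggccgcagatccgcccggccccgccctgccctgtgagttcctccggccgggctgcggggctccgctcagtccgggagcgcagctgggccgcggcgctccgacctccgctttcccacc
P4HA1: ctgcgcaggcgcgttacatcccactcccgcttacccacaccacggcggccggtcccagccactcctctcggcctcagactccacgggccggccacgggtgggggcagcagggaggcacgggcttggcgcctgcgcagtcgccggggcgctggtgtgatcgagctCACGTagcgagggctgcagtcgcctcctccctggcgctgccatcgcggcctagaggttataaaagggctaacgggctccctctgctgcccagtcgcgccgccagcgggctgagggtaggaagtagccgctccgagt
CA9: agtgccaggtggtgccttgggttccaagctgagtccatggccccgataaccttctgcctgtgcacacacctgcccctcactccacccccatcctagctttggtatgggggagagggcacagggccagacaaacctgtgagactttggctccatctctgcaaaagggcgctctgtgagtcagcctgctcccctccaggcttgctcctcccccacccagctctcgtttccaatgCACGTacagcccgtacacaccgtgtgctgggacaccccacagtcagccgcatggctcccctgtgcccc
The core was found in 11 of the 21 list members with a promoter in the table, 10 of them among the 18 called, and in 32.1% of the 11717 tested genes with a promoter, a description that shows no binding.

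Of 25 hypoxia genes tested, 19 fell and 1 rose, with a median log2 fold change of -0.38 (over all genes tested -0.00021). BNIP3, a mitophagy receptor gene, was at 367, 344, 336 and 387 CPM with irinotecan, against 579.6, 543, 583 and 596 CPM with DMSO (ENSG00000176171, chromosome 10, 131966455 to 131982013). CA9, a carbonic anhydrase that exports acid, was at 49.6, 38.6, 42.7 and 43.5 CPM with irinotecan, against 117, 91.0, 105 and 97.3 CPM with DMSO. VEGFA, the vessel growth factor, was at 306, 268, 286 and 319 CPM with irinotecan, against 511, 513, 472 and 541 CPM with DMSO (ENSG00000112715, chromosome 6, 43770184 to 43786487). In all 3 genes the highest irinotecan library was below the lowest DMSO library. The other members with the smallest p were BNIP3L (-0.47 ± 0.038), the collagen prolyl hydroxylase gene P4HA1 (-0.41 ± 0.034), PFKFB4 (-0.62 ± 0.052), which makes an activator of glycolysis, the vasodilator peptide gene ADM (-0.71 ± 0.057) and the glucose transporter gene SLC2A1 (-0.42 ± 0.036). HIF1A itself fell little (-0.12 ± 0.037; not called without DMSO replicate 3 or 4, at -0.10 and -0.098, or irinotecan replicate 2, at -0.10), and the member that rose was EPAS1, which encodes HIF-2α (0.34 ± 0.073), both named after their values were seen. Beyond the list, APLN, a vascular peptide gene known to respond to hypoxia and 1 of the 15 lowest genes, was at 3.95 ± 0.627 CPM with irinotecan and 8.65 ± 1.65 CPM with DMSO (-1.14 ± 0.13).

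Genes of glycolysis fell as well. Of 18 tested, 14 fell and 1 rose (median -0.35). PGK1, which makes ATP in the pathway, was at 2433, 2222, 2314 and 2330.4 CPM with irinotecan, against 3749, 3401, 3684 and 3608 CPM with DMSO. ENO1 was at 4524, 4348, 4218 and 4127 CPM with irinotecan, against 6762, 5982, 6428 and 6079.8 CPM with DMSO. The groups were far apart in both genes. PFKP (-0.45 ± 0.038), PKM (-0.36 ± 0.033), GAPDH (-0.42 ± 0.04) and HK2 (-0.48 ± 0.046) fell too, and GAPDH and PGK1 are often used as reference genes. The lactate dehydrogenase genes LDHA (0.15 ± 0.06) and LDHB (0.038 ± 0.037), named after their values were seen, were not called, though LDHA was called higher without DMSO replicate 3 (0.20). Few genes of respiration were called: 3 of 45 nuclear-encoded subunit genes fell and 1 rose, though 0 fell and 9 rose scaled by library totals. Of 13 mitochondrially encoded mRNAs 0 were called by edgeR, 0 by DESeq2 and 0 at an unadjusted p under 0.05.

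Cholesterol synthesis genes fell and genes of cholesterol export rose. The SREBP2 factor switches on synthesis and uptake when membrane sterol is low, whereas LXR receptors, bound by oxidised sterols, switch on export. Of 26 synthesis and uptake genes 17 fell and 1 rose (median -0.25). HMGCS1, which makes HMG-CoA, was at 71.1, 68.1, 70.3 and 70.7 CPM with irinotecan, against 122, 138, 139 and 127 CPM with DMSO (ENSG00000112972, chromosome 5, 43289395 to 43313512). The irinotecan libraries lay within a few CPM of each other and far under the DMSO libraries. INSIG1, which holds SREBP back in the endoplasmic reticulum (-0.64 ± 0.04), and the enzymes MSMO1 (-0.53 ± 0.044), SQLE (-0.53 ± 0.045) and FDFT1 (-0.39 ± 0.037) followed. The SREBP element, searched as TCACNCCAC on either strand of the same promoter windows, was found in 1 of the 19 members with a promoter in the table and in 1.46% of the 11717 tested genes with one. The member that rose was TM7SF2, a sterol reductase gene (0.39 ± 0.069). Of 14 genes for sterol efflux and LXR targets 7 rose and 1 fell (median 0.17). APOE, the lipid carrier, was at 5.79, 4.47, 4.93 and 4.38 CPM with irinotecan, against 1.80, 1.82, 2.41 and 1.52 CPM with DMSO, and the exporter genes ABCA1 (0.61 ± 0.079) and ABCG1 (1.53 ± 0.38) rose, ABCG1 at under 1 CPM in every library. NPC2 (0.17 ± 0.048; not called without irinotecan replicate 1, at 0.13) and NPC1 (0.19 ± 0.054), which move sterol out of lysosomes, rose and SMPDL3A fell (-0.31 ± 0.093; not called without DMSO replicate 3, at -0.24).

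Of 18 genes for fatty acid synthesis and desaturation 10 fell and 2 rose (median -0.17). SCD, the desaturase that makes oleate, was at 1398, 1396, 1413 and 1438 CPM with irinotecan, against 2316, 2219.8, 2423 and 2364 CPM with DMSO. FADS1 (-0.47 ± 0.042), FADS2 (-0.38 ± 0.041), ELOVL6 (-0.29 ± 0.034) and FASN (-0.32 ± 0.041) also fell, and ACSL1, which activates fatty acids for use, rose (0.53 ± 0.057). Lysosome and autophagy genes were called in 15 of 30, all higher by edgeR (median 0.11; DESeq2 called 13 higher and 1 lower, 2 were lower at an unadjusted p under 0.05, and 9 were called higher without DMSO replicate 4). GPNMB, a lysosomal membrane glycoprotein gene, was at 19.3, 22.1, 19.4 and 19.4 CPM with irinotecan, against 10.4, 9.48, 11.3 and 9.39 CPM with DMSO, and its groups were well apart. The sialidase gene NEU1 (0.40 ± 0.044), the proton pump subunit gene ATP6V0D1 (0.24 ± 0.044) and the hydrolase genes GAA (0.23 ± 0.047) and GLA (0.24 ± 0.049) rose less. Under scaling by library totals 21 of the 30 were higher and none lower.

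Genes of glial identity fell while some epithelial genes rose. Of 15 astrocyte and glial genes 11 fell and 1 rose (median -0.42). GFAP, the intermediate filament of astrocytes, was at 93.8, 94.0, 99.3 and 91.9 CPM with irinotecan, against 201, 205, 215 and 189 CPM with DMSO (ENSG00000131095, chromosome 17, 44903161 to 44916937). FABP7, the fatty acid binding protein of radial glia, was at 160.4, 156, 147 and 148 CPM with irinotecan, against 250.1, 249, 246 and 252 CPM with DMSO. Neither gene's groups came near each other. NFIB, SOX9 (-0.44 ± 0.038) and the filament gene VIM (-0.42 ± 0.04) fell too, and CLU was the member that rose (0.19 ± 0.043). PADI2, which encodes an enzyme that citrullinates proteins such as GFAP and was 1 of the 15 lowest genes, was at 384, 359.8, 374 and 403 CPM with irinotecan, against 759.8, 693, 743 and 753 CPM with DMSO. Of 19 proneural and glioma stem cell factors 8 fell and 3 rose, with POU3F2 at -0.33 ± 0.037 and SOX2 at -0.20 ± 0.036. The neurofilament gene NEFL was at 686 ± 14.1 CPM with irinotecan and 1069 ± 51.4 CPM with DMSO, and among 21 neuronal and synaptic genes 7 fell and 2 rose. In bulk RNA, fewer cells that express a gene and less of its RNA per cell cannot be told apart.

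Of 15 keratin and epithelial genes 9 rose and 2 fell (median 0.35). KRT8 was at 395, 385, 373 and 359 CPM with irinotecan, against 278, 237, 257 and 250.1 CPM with DMSO, and the junction gene JUP at 89.6, 85.2, 80.3 and 83.4 CPM with irinotecan, against 52.1, 48.8, 56.6 and 52.4 CPM with DMSO. The tight junction genes CLDN4 (0.67 ± 0.084) and CLDN1 (0.61 ± 0.078) rose, whereas the hemidesmosome integrin gene ITGB4 (-0.51 ± 0.03) and KRT81 (-0.22 ± 0.071, named after its value was seen) fell, the call of KRT81 being lost without DMSO replicate 1 or 3 (-0.17 and -0.20) or irinotecan replicate 3 or 4 (-0.21 and -0.17). KRT8 overlaps KRT18 on the other strand and keratins share sequence, so their counts carry an uncertainty that was not measured. AQP3, a water channel gene of epithelia and 1 of the 15 highest genes, was at 3.08 ± 0.564 CPM with irinotecan and 1.31 ± 0.528 CPM with DMSO.

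Several of the most changed genes act in neurons, channels and guidance. NGFR, the low-affinity neurotrophin receptor gene, was at 14.9, 15.5, 15.1 and 13.9 CPM with irinotecan, against 5.44, 5.96, 6.08 and 6.10 CPM with DMSO (ENSG00000064300, chromosome 17, 49495293 to 49515017). It was the member of 10 neurotrophin genes that changed most; NTRK2 rose (0.19 ± 0.059; not called without DMSO replicate 2, at 0.16, or irinotecan replicate 3, at 0.13) and NTRK3 (-0.16 ± 0.043) and MAGED1 (-0.16 ± 0.035) fell. TUBB4A, a tubulin gene of neurons and oligodendrocytes, was at 12.1, 11.5, 11.3 and 10.5 CPM with irinotecan, against 4.29, 4.35, 4.46 and 4.13 CPM with DMSO, and the synaptic scaffold gene SHANK3 was at 6.08 ± 0.486 CPM with irinotecan and 2.56 ± 0.319 CPM with DMSO. Both were among the 15 highest genes. CNTN2, an axonal adhesion gene, was on the other side, at 1.74, 1.87, 2.15 and 1.67 CPM with irinotecan, against 4.43, 5.09, 4.62 and 4.13 CPM with DMSO. Of 22 potassium channel genes 4 rose and 6 fell, with KCNK6 (1.28 ± 0.18) opposite to KCNIP1, KCNN4 (-0.45 ± 0.047), KCNJ2 (-0.54 ± 0.058), KCNMA1 (-0.33 ± 0.041) and the glial channel KCNJ10 (-0.59 ± 0.076). Of 43 axon guidance genes 9 rose and 15 fell. The semaphorin receptor gene PLXNA4 was at 34.8, 39.2, 36.2 and 38.0 CPM with irinotecan, against 68.6, 85.9, 63.4 and 69.5 CPM with DMSO. The ligand genes SEMA5B (-1.02 ± 0.14) and SLIT3 (-0.52 ± 0.06) fell with it, and the ligand gene SEMA7A rose (0.76 ± 0.10).

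**Figure D4:**
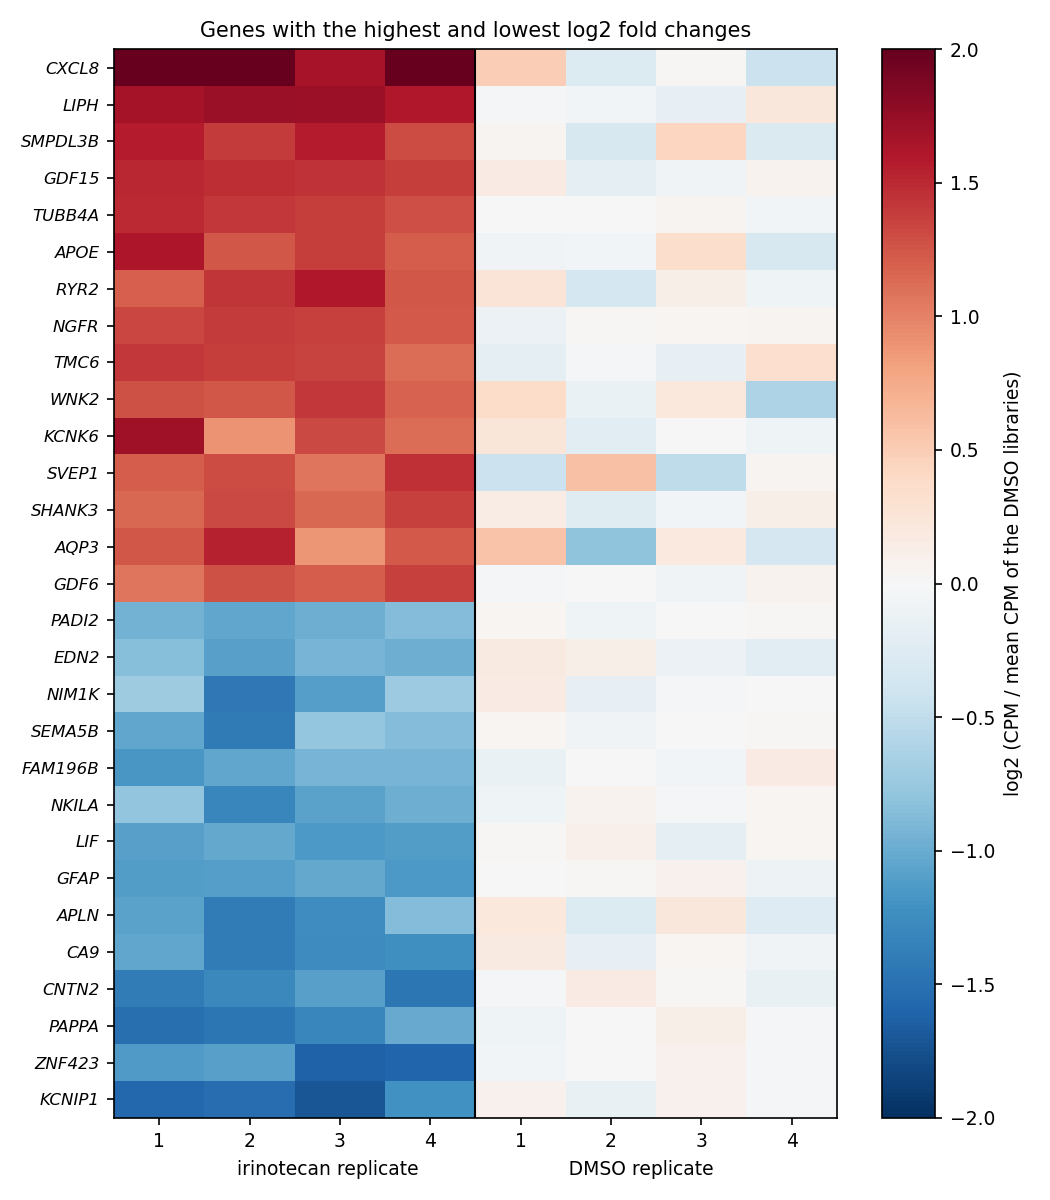
Log2 of each library's CPM over the mean CPM of the 4 DMSO libraries, for called genes at the 2 ends of the log2 fold changes, at a mean log2 CPM of 1 or more (29 of the 30 genes so chosen). Columns 1 to 4 are irinotecan replicates and the next 4 are DMSO replicates; every irinotecan column is above 0 (red) for the upper genes and below 0 (blue) for the lower ones.

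Interferon-stimulated genes rose by modest amounts. Type I interferon, or DNA and RNA sensed in the cytoplasm, activates factors that bind the element GAAANNGAAA in the promoters of antiviral genes. Promoters of 2 called members that carry that element are shown, IFIT3 and IFI44, which were among the members with the smallest p. The element on either strand is in capitals (RefSeq, GRCh38.p14, 250 bases before to 50 after the start). The windows are IFIT3 chr10:89327747-89328046, plus strand, and IFI44 chr1:78649539-78649838, plus strand.
IFIT3: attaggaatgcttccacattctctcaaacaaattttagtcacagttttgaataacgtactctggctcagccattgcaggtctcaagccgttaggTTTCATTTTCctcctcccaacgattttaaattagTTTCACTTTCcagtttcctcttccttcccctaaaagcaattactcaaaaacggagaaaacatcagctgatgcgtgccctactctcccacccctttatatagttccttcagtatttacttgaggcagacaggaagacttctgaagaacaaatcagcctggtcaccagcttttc
IFI44: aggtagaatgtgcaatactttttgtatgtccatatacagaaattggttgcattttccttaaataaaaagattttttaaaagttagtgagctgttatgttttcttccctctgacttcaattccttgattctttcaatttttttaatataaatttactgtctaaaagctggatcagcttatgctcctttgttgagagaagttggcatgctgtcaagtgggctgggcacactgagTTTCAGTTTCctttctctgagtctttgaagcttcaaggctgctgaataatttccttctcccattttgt
The element was found in 18 of the 26 list members with a promoter in the table, in 11 of the 16 of those that were called, and in 3.96% of the 11717 tested genes with a promoter.

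Of 34 interferon response genes 22 rose and 0 fell by edgeR (23 and 0 by DESeq2, 25 and 0 at an unadjusted p under 0.05; median 0.35). IFIT3, which restricts viral RNA, was at 16.97, 13.5, 18.7 and 17.1 CPM with irinotecan, against 9.47, 9.19, 7.78 and 11.3 CPM with DMSO. IFI44 was at 72.8, 63.1, 76.9 and 71.5 CPM with irinotecan, against 54.8, 58.1, 51.8 and 57.0 CPM with DMSO. The groups did not overlap in either gene. IFIT2 (0.60 ± 0.094), the transcription factor gene IRF1 (0.48 ± 0.079), UBA7 (0.51 ± 0.085) and ISG15 (0.45 ± 0.073), a ubiquitin-like protein that UBA7 activates, also rose. Of 11 genes that sense nucleic acids 5 rose and 1 fell. SAMHD1, which destroys deoxynucleotides, was at 56.0 ± 4.77 CPM with irinotecan and 40.1 ± 0.896 CPM with DMSO, and the class I transactivator gene NLRC5 rose by 0.51 ± 0.086. Of 15 antigen presentation genes 11 rose and 0 fell by edgeR (median 0.34; 10 and 0 by DESeq2, 12 and 0 at an unadjusted p under 0.05). B2M, which encodes the invariant chain of class I molecules, was at 1577, 1572, 1568 and 1575 CPM with irinotecan, against 1199, 1226, 1276 and 1275 CPM with DMSO. HLA-E (0.36 ± 0.033), HLA-F (0.91 ± 0.13) and the immunoproteasome subunit gene PSMB8 (0.37 ± 0.059) rose too. HLA genes share sequence with each other, so reads may have been split between them.

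NF-kB target genes and feedback regulators rose in 12 of 22 and fell in 4, or 2 without DMSO replicate 1 (median 0.25). CXCL8, which encodes interleukin-8, was at 5.25, 4.83, 3.26 and 4.50 CPM with irinotecan, against 1.48, 0.870, 1.07 and 0.775 CPM with DMSO (ENSG00000169429, chromosome 4, 73740506 to 73743716). Its fold of 4.26 was the highest of the called genes whose mean log2 CPM reached 1, at a level of a few CPM. The non-canonical subunit genes NFKB2 (0.41 ± 0.062) and RELB (0.66 ± 0.11), TRAF1 (0.95 ± 0.15) and TNFRSF9 (1.92 ± 0.30) rose, the last from under 1 CPM in every DMSO library, and the inhibitor gene TNIP1 (-0.30 ± 0.042) and the chemokine gene CCL2 (-0.25 ± 0.039) fell. Other secreted factors fell. LIF, a cytokine that keeps stem cells undifferentiated, was at 57.2, 60.0, 55.0 and 56.3 CPM with irinotecan, against 124, 130.2, 108 and 126 CPM with DMSO, and the related cytokine gene IL11 was at 14.7 ± 1.57 CPM with irinotecan and 27.3 ± 2.84 CPM with DMSO. Of 17 genes of the senescence secretory type 5 rose and 5 fell, among the risen IGFBP4 (0.63 ± 0.063) and TIMP2 (0.31 ± 0.033). Of 28 BCL2 family and death receptor genes 10 rose and 1 fell, including BIK (0.96 ± 0.18), BID (0.26 ± 0.053), FAS (0.59 ± 0.14) and CASP10 (2.02 ± 0.41), which was under 1 CPM in all 8 libraries. MCL1 was the gene that fell (-0.12 ± 0.044), a call lost without DMSO replicate 2 or 4 (-0.064 and -0.11) and without each irinotecan replicate (-0.10 to -0.13).

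The series' title names TGF-β, a cytokine that drives matrix production and the mesenchymal state of glioma cells. TGFB1 was at 131, 135, 122 and 126 CPM with irinotecan, against 137, 124, 135 and 131 CPM with DMSO. TGFB2 was at 27.3, 27.2, 30.4 and 35.6 CPM with irinotecan, against 30.6, 32.5, 35.9 and 36.1 CPM with DMSO. In both genes the groups overlapped, and neither was called (adjusted p = 0.626 and 0.079), though TGFB2 was called lower without DMSO replicate 1 (-0.21) or irinotecan replicate 4 (-0.26), and in the 12 numbered libraries with and without a replicate block (-0.22 in both). TGFB3 fell (-0.43 ± 0.067), while the receptor genes ENG (0.40 ± 0.11) and TGFBR2 (0.15 ± 0.042; not called without irinotecan replicate 3, at 0.12) rose. Of 30 SMAD and TGF-β response genes 11 fell and 3 rose (median -0.10). Scaled by library totals, 9 fell and 7 rose (median -0.029), so the balance of the directions depended on the scaling. PMEPA1, a feedback inhibitor, was at 866, 865, 849 and 852 CPM with irinotecan, against 1437, 1334, 1464 and 1357 CPM with DMSO. NKILA, a long noncoding RNA annotated beside PMEPA1 on the other strand and 1 of the 15 lowest genes, was at 3.48 ± 0.505 CPM with irinotecan and 7.08 ± 0.341 CPM with DMSO, and without a stated strand setting its counts cannot be told from those of its neighbour. CTGF (-0.46 ± 0.042), ID1 (-0.42 ± 0.062) and CDH2 (-0.25 ± 0.039) fell, and COL1A1 rose (0.45 ± 0.061). In the BMP and activin list 7 of 20 rose and 4 fell (2 without DMSO replicate 3 or 4 or irinotecan replicate 2). BMP4 was at 7.89, 8.55, 6.77 and 6.65 CPM with irinotecan, against 4.11, 3.35, 3.91 and 3.71 CPM with DMSO, and the antagonist genes NOG (0.46 ± 0.063) and FST (1.16 ± 0.17) rose beside it. GDF6, a BMP family ligand and 1 of the 15 highest genes, was at 3.68 ± 0.310 CPM with irinotecan and 1.57 ± 0.0609 CPM with DMSO.

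YAP and TEAD targets fell in 11 of 24 and rose in 3. AMOTL2, a target that feeds back on YAP, was at 187, 176, 189 and 187 CPM with irinotecan, against 299.7, 291, 283 and 293 CPM with DMSO. FJX1 (-0.71 ± 0.046), CYR61 (-0.36 ± 0.035) and CRIM1 (-0.32 ± 0.045) fell and ANKRD1 rose (0.42 ± 0.057). ERK feedback and immediate early genes fell in 11 of 25 and rose in 3: PHLDA1 (-0.48 ± 0.039), SPRY2 (-0.36 ± 0.041), EGR1 (-0.34 ± 0.042) and SPRY1 (-0.60 ± 0.083) fell and the phosphatase gene DUSP4 rose (0.56 ± 0.043). Of 19 Notch genes 8 rose (5 without irinotecan replicate 2) and 2 fell, with the receptor gene NOTCH3 (0.97 ± 0.20), its ligand gene JAG2 (0.65 ± 0.15) and the target gene NRARP (0.59 ± 0.13) higher and the coactivator genes MAML2 (-0.47 ± 0.06) and MAML3 (-0.48 ± 0.11) lower. In the Wnt list 6 of 32 rose and 5 fell, with the inhibitors apart, DKK1 higher (0.37 ± 0.04) and SFRP1 lower (-0.47 ± 0.049). Of 25 growth factor and receptor genes 8 rose and 7 fell. PDGFA was at 54.0, 54.7, 51.7 and 54.3 CPM with irinotecan, against 81.5, 78.2, 78.3 and 77.3 CPM with DMSO, and HBEGF, an EGF-like ligand, at 6.48, 5.56, 6.15 and 6.17 CPM with irinotecan, against 2.99, 2.77, 3.47 and 3.10 CPM with DMSO.

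In the insulin-like growth factor axis, PAPPA frees the growth factor from its binding proteins and stanniocalcins inhibit PAPPA. PAPPA was at 8.86, 9.21, 10.2 and 12.5 CPM with irinotecan, against 23.6, 25.2, 27.1 and 24.7 CPM with DMSO (ENSG00000182752, chromosome 9, 116153804 to 116402322). STC1 was at 244, 231, 244 and 260.3 CPM with irinotecan, against 407, 394, 419 and 383 CPM with DMSO, and STC2 fell by a log2 change of -0.55. The groups were apart in all 3 genes, and both the protease and its inhibitors were lower. In all, 6 of the 14 genes of this list fell and 1 (IGFBP4) rose. Matrix genes went both ways. Of 36 collagens, laminins and glycoproteins 7 rose and 12 fell, led by COL8A1 (-0.62 ± 0.037), and of 35 crosslinking enzymes, proteases and inhibitors 7 rose and 15 fell. Scaled by library totals, 8 rose and 9 fell in the former list, and 10 rose and 10 fell in the latter. CEMIP, which breaks down hyaluronan, was at 187, 171, 188 and 187 CPM with irinotecan, against 77.9, 83.9, 86.5 and 72.5 CPM with DMSO, and rose, whereas the gelatinase gene MMP2 (-0.45 ± 0.033), the urokinase gene PLAU (-0.46 ± 0.041) and the collagen-modifying enzyme genes LOX (-0.72 ± 0.06) and PLOD2 (-0.43 ± 0.042) fell. Of 25 integrin and adhesion genes 9 fell, ITGA3 (-0.39 ± 0.032) and ITGB5 (-0.30 ± 0.038) among them, and 4 rose, with ITGA5 at 0.33 ± 0.042.

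Many splicing factor genes fell slightly. Of 29 SR protein, CLK kinase and hnRNP genes 18 fell and 0 rose by edgeR (median -0.16; 19 and 0 by DESeq2 and at an unadjusted p under 0.05; with library totals as the scale 12 fell and 1 rose, median -0.08). HNRNPDL was at 382, 401, 379 and 388 CPM with irinotecan, against 460.4, 483, 447 and 479 CPM with DMSO. HNRNPA2B1 (-0.24 ± 0.033), SRSF1 (-0.25 ± 0.037), HNRNPU (-0.19 ± 0.032), HNRNPK (-0.18 ± 0.03) and SRSF3 (-0.18 ± 0.032) followed. Stress genes went both ways. Of 30 genes in the list for unfolded proteins and integrated stress 7 rose (4 without irinotecan replicate 2) and 12 fell (7 and 8 scaled by library totals), the chaperone genes HSPA5 (-0.27 ± 0.04) and HSP90B1 (-0.19 ± 0.031) among the fallen and SESN2 among the risen. HMOX1, which breaks down haem, was at 26.0, 24.3, 21.6 and 20.4 CPM with irinotecan, against 12.9, 10.7, 12.1 and 12.9 CPM with DMSO, and was the 1 riser among 18 NRF2 targets, of which 6 fell (4 rose and 4 fell by library totals), led by ABCC3 (-0.36 ± 0.036). Ribosomal protein genes were called in 1 of 75 (lower, with 7 lower without DMSO replicate 2 and 0 to 2 without any other library), heat shock genes in 3 higher and 3 lower of 18, and ribosome biogenesis genes in 2 higher and 5 lower of 28, with 3 lower without DMSO replicate 1, 3 or 4 or irinotecan replicate 1. Scaled by library totals, 9 ribosomal protein, 6 heat shock and 6 ribosome biogenesis genes were higher and 0 were lower in each list.

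Of the other genes named by size of change, LIPH, a phospholipase that makes lysophosphatidic acid, was at 6.55, 6.89, 6.77 and 6.25 CPM with irinotecan, against 2.02, 1.99, 1.86 and 2.42 CPM with DMSO. SMPDL3B, a lipid phosphodiesterase of the plasma membrane, was at 4.70 ± 0.443 CPM with irinotecan and 1.70 ± 0.432 CPM with DMSO. These rises were more than 2-fold at levels of a few CPM, as were those of TMC6 (1.31 ± 0.20), the kinase gene WNK2 (1.29 ± 0.16) and the matrix gene SVEP1 (1.27 ± 0.19). Among the lowest were the endothelin gene EDN2 (-0.96 ± 0.14), FAM196B (-1.02 ± 0.08) and the kinase gene NIM1K (-0.98 ± 0.16).

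Markers of cell types other than the line's moved with these groups and were summed per library. Of the epithelial markers 4 of 9 were tested and 3 rose, and their summed level was 592 to 652 CPM of library totals with irinotecan and 407 to 458 CPM with DMSO, nearly all of it KRT8 and KRT18. Of the endothelial markers 6 of 10 were tested and 4 rose (2 without irinotecan replicate 2), FLT1 (0.71 ± 0.14) and EGFL7 (0.55 ± 0.13) among them, from summed levels of 17.6 to 19.9 CPM with irinotecan and 11.4 to 14.0 CPM with DMSO. Astrocyte and glioma markers summed to 5806 to 5953 CPM with irinotecan and 7412 to 7645 CPM with DMSO, with 8 of 9 lower. Neuronal markers summed to 765 to 800.2 CPM with irinotecan and 1065 to 1153 CPM with DMSO, which NEFL set, since 2 of the 8 tested rose and NEFL alone fell, and GAD2 had a count of 0 in all 8 libraries. Immune markers were at 1.79 to 2.71 CPM with irinotecan and 1.37 to 2.19 CPM with DMSO, oligodendrocyte markers, which did not overlap (two-sided exact permutation test, adjusted p = 0.0476), at 327 to 360.2 CPM with irinotecan and 279.6 to 319 CPM with DMSO (MAG and OPALIN at a count of 0, CNP giving nearly all the sum), and fibroblast and pericyte markers at 389.9 to 408 CPM with irinotecan and 366 to 413 CPM with DMSO (LUM at a count of 0). Of the fibroblast and pericyte markers 5 of 8 were tested, and 2 rose and 0 fell (median log2 fold change 0.45), although their sums overlapped. Of the oligodendrocyte markers 4 of 8 were tested, and 1 rose and 0 fell. The part of other cell types in the results above was not tested.

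Irinotecan was measured a second time in cells that received simvastatin, where the combination was set against simvastatin alone with no library shared. There 4259 genes (25.6% of those tested) were called, 2306 higher and 1953 lower. Of the 4015 genes called for irinotecan alone, 97.9% had the same sign there, 2747 (68.4%) were called in that direction and none in the other. Over all genes tested, called or not, 76.3% had the same sign in both comparisons, and 24.8% were also called there in that direction. These 2747 made up 64.5% of the 4259 calls. Across all 16647 genes, which are not independent replicates, Pearson's r of the 2 sets of log2 fold changes was 0.637. With simvastatin present, GFAP changed by -0.95 ± 0.04, CDKN1A by 0.55 ± 0.042, NGFR by 1.29 ± 0.081, PAPPA by -1.06 ± 0.082, VEGFA by -0.97 ± 0.062 and HMGCS1 by -0.73 ± 0.049 on the log2 scale, against -1.10, 0.59, 1.33, -1.31, -0.79 and -0.91 without it. The hypoxia list had 20 of 25 genes called lower and 1 higher there, the cholesterol list 17 of 26 lower and 1 higher, and the interferon list 17 of 34 higher. The difference between the 2 irinotecan effects passed the test in 2 of 16647 genes (0.012%), while 1000 had an unadjusted p under 0.05. With 1 library left out that count was 9 without simvastatin replicate 3, 1 without irinotecan replicate 2 or 3, DMSO replicate 3 or simvastatin replicate 4, 2 without DMSO replicate 1, 3 without simvastatin replicate 2, and 0 without any other library. In the 12 numbered libraries the difference passed in 190 genes with a replicate block and in 1 without it. CXCL8 was at 26.0 ± 1.88 CPM with the combination and 34.2 ± 8.14 CPM with simvastatin, a log2 fold change of -0.39 ± 0.14 where irinotecan alone gave 2.09 ± 0.29 (difference -2.48 ± 0.33, adjusted p = 0.037). DDIT4, a stress-induced inhibitor of mTORC1, was at 52.8 ± 2.68 CPM with the combination and 90.5 ± 2.84 CPM with simvastatin (-0.78 ± 0.055), and at 42.6 ± 2.78 CPM with irinotecan and 53.6 ± 4.96 CPM with DMSO (-0.33 ± 0.057; difference -0.44 ± 0.079, adjusted p = 0.037).

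**Figure D5:**
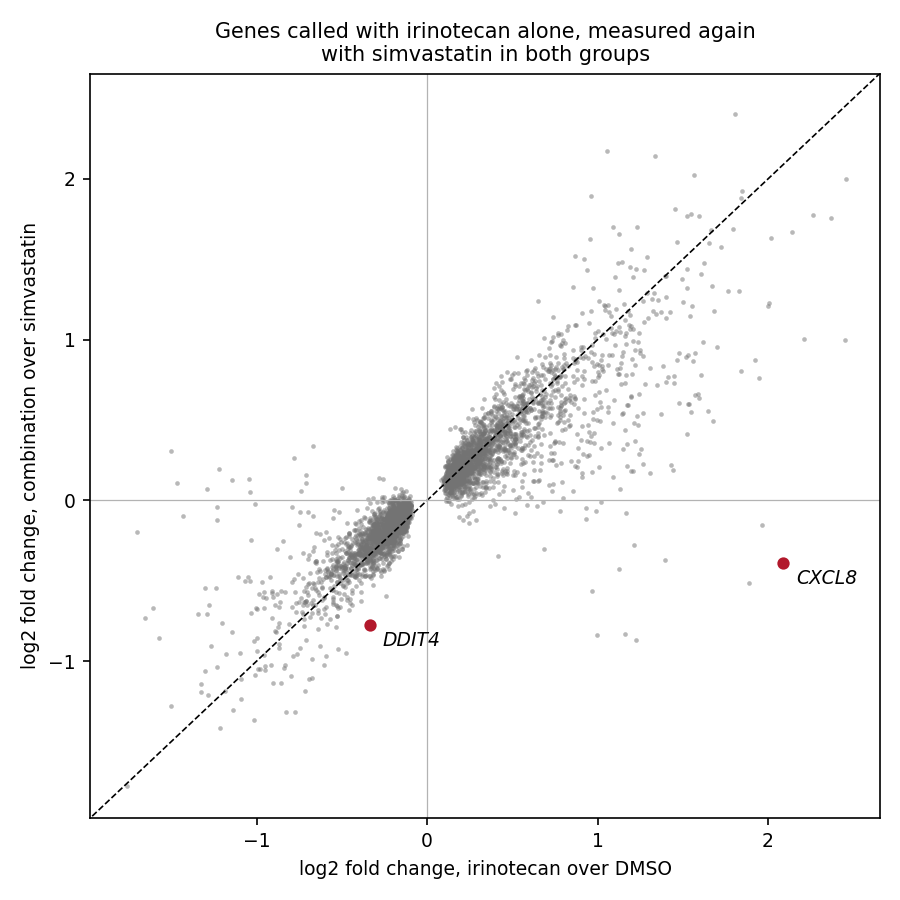
Log2 fold change of the 4015 called genes with irinotecan over DMSO (horizontal) and with the combination over simvastatin (vertical); the dashed line marks equal values. 97.9% of the points lie in the lower left and upper right quadrants, where 76.3% of all genes tested would lie. CXCL8 and DDIT4, the genes whose effects differ by the test, are named.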

How the data were processed

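RNA of U-251 MG cells was sequenced after poly(A) selection. The deposited table holds whole-number read counts per gene for 16 libraries. Per the submitters' processing notes, STAR 2.7.1, FastQC, DESeq2 and GRCh38 were used, and for the annotation release, the counting step and its strand the sources used here give nothing. Groups came from the treatment labels. Gene IDs were given the names and coordinates of GENCODE 29 (57980 of 58243 matched).

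Counts were fitted with edgeR 4.0.16 (R 4.3.3; TMM scaling, quasi-likelihood with robust dispersion), over all 16 libraries with 1 mean per group, after a filter that asked for a count of about 10 in the smallest group and a total of at least 15. Comparisons were irinotecan against DMSO, the combination against simvastatin, and the difference between them, with Benjamini-Hochberg adjustment over all genes. Displayed CPM are TMM-scaled, except summed markers and shares, which use library totals. Library sums were compared by two-sided exact permutation tests, whose smallest p with 4 against 4 is 0.0286. The common biological coefficient of variation was 5.25%, and the fit was tested on simulated counts.

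Named genes are the 15 highest and 15 lowest called genes at a mean log2 CPM of at least 1, the members of each described list with the smallest p, and a fixed set around the drug and the title; results of some genes that this rule takes are not reported here. The 58 gene lists and the members were chosen with earlier results of these data known. No replicate pair within a group was as close as sampling noise alone (chi-square per degree of freedom 2.59 to 15.4). The alternatives included library totals, DESeq2 1.42.0, size factors by median ratio, no filter on low counts, stricter thresholds, the compared groups alone, a replicate block and leaving out each library.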

Additional observations from a re-analysis of the deposited data

Results flagged for a closer look

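Irinotecan had a different effect with simvastatin than without it, by the test of that difference, in CXCL8 (-2.48 on the log2 scale) and DDIT4 (-0.44). CXCL8 was 4.26-fold higher with irinotecan than with DMSO, and with simvastatin in both groups its log2 fold change was -0.39. DDIT4 fell in both comparisons, and further with simvastatin present.

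In 19 cases 1 of the 4 libraries of a group stood apart from the other 3 by Dixon's criterion, among 2 groups of 234 genes; chance alone gives about 1 in 20 groups. Among irinotecan libraries, replicate 2 stood low in CEMIP (171 CPM), MSH6 (135 CPM) and NLGN4X (123 CPM) and high in GPNMB (22.1 CPM). Replicate 3 stood low in CDC25B (177 CPM). Replicate 4 stood low in DDB2 (49.6 CPM) and DKK1 (166 CPM) and high in MCM6 (133 CPM), SLC2A1 (594 CPM), TNFRSF9 (1.83 CPM) and UBA7 (17.01 CPM), and replicate 1 stood high in KIRREL3 (20.2 CPM).

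Among DMSO libraries, replicate 3 stood high in CDH2 (253 CPM), FN1 (250.4 CPM), HLA-F (4.54 CPM) and SMPDL3A (11.3 CPM), replicate 2 stood high in FAS (5.96 CPM), and replicate 4 stood low in IGFBP4 (17.4 CPM) and TM7SF2 (15.6 CPM). Of these genes, DDB2 was not called, and the call of SMPDL3A was lost without DMSO replicate 3, the library that stood apart (-0.24).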

How the results depend on the processing

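At an adjusted p under 0.01, 2587 genes were called for irinotecan (1323 higher and 1264 lower) in place of 4015, and the combination against simvastatin gave 2681 and the difference between both 0. Against a minimum log2 fold change of 0.26, 809 were called (524 higher and 285 lower), with 162 list entries in place of 550, and 746 for the combination and 0 for the difference. The difference gave 4 genes by DESeq2 and 14 without a filter on low counts. Scaled by library totals, an alternative chosen after seeing the data, 3789 were higher, against 1079 lower. Leaving out 1 library at a time, calls numbered 3393 to 3778 for irinotecan (1684 to 1931 higher, 1682 to 1908 lower), 3479 to 4371 for the combination, 0 to 9 for the difference and 488 to 523 list entries; list counts of 3 or fewer often moved by over 1.5 times. Same-numbered irinotecan and DMSO libraries deviated together at correlations of 0.075, 0.002 and 0.084, and those of unlike number at -0.045 to 0.062. These values do not settle whether to pair the libraries, and the main fit did not pair them. In the 12 numbered libraries the difference gave 190 genes with a replicate block and 1 without, and irinotecan 4257 and 2997. The count for the difference thus depended on the pairing. Lower calls were 69.0% in the longest and 66.7% in the shortest of 10 equal groups of genes, and 64.9% over 300 kb by library totals.

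Scaled by TMM, summed differences between irinotecan and DMSO turned negative for mitochondrially encoded genes (-1099 CPM), ribosomal protein genes (-525 CPM) and fibroblast markers (-8.94 CPM), none of which had passed the test. Others kept their sign and passed no longer: endothelium 5.19, epithelium 167, oligodendrocytes 25.4, neurons -383, astrocytes and glioma -1997 and genes over 300 kb -4171 CPM, the oligodendrocyte sums at an adjusted exact p of 0.19 and the rest at 0.0571. For the rest the unadjusted exact p was 0.0286, the smallest possible, under both scalings. Only the adjustment over the 10 sums moved there, as the oligodendrocyte sums left that smallest p. Of genes not called, library totals turned the sign of the log2 fold changes of MCM3 (0.0025), RRM2B (0.062), TGFB1 (0.041) and ZMAT3 (0.054), as did a left-out library for RRM2B (-0.050 to 0.0064 over left-out libraries) and ZMAT3 (-0.058 to 0.010). Of 234 named genes, 11 changed their call with some library left out, and 79 lost it against a minimum log2 fold change of 0.26. Scaled by library totals, 10 lost their call: HIF1A, KRT81, MAGED1, MCL1, MUS81, NORAD, NTRK3, PHGDH, PSAT1 and SMPDL3A. With that scaling 4 gained a call: LDHA, LDHB, TOP1 and XPC. The cause of these shifts was not tested. Genes of a few CPM rest on the fewest counts, and small changes there were not detectable at this depth.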

Other observations

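Of 19 genes for amino acid synthesis and transport 7 fell and 2 rose with irinotecan (median log2 fold change -0.083), against 4 and 3 scaled by library totals (median -0.0079). SLC7A11, the cystine and glutamate exchanger, was at 98.6, 94.9, 113 and 108 CPM with irinotecan, against 133, 123, 142 and 135 CPM with DMSO, and the groups did not overlap. The leucine transporter gene SLC7A5 (-0.27 ± 0.054) and the serine pathway genes PSPH (-0.19 ± 0.039), PSAT1 (-0.17 ± 0.041) and PHGDH (-0.19 ± 0.048) fell as well, although PSAT1 (-0.093) and PHGDH (-0.11) were not called with library totals. MTHFD2, an enzyme of mitochondrial folate metabolism, rose (0.25 ± 0.037).

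Genes of the mesenchymal type of glioblastoma went both ways, with 7 of 24 higher and 8 lower (median 0.047; 4 were higher without irinotecan replicate 1 or 3). Scaled by library totals, 13 were higher and 6 lower (median 0.12), so this balance depended on the scaling. ANXA2, a membrane-binding annexin gene, was at 2469 ± 72.1 CPM with irinotecan and 3188 ± 161 CPM with DMSO, and the transcription factor gene RUNX2 (-0.42 ± 0.048) and the urokinase receptor gene PLAUR (-0.35 ± 0.045) fell too. The fibronectin gene FN1 rose (0.32 ± 0.077). Of 18 variant histone genes and genes of histone mRNA processing 5 fell and 0 rose by edgeR (5 and 0 by DESeq2, 5 and 4 at an unadjusted p under 0.05, 4 and 4 scaled by library totals). Of 18 abundant noncoding RNAs 2 fell and 0 rose by edgeR (2 and 0 by DESeq2, 3 and 2 at an unadjusted p under 0.05, 0 and 3 scaled by library totals), with NORAD at -0.17 ± 0.048. Of 16 genes for TGF-β ligands, receptors and latency 4 rose and 3 fell. Without irinotecan replicate 3 the higher count was 1, and without DMSO replicate 2 or 4 or irinotecan replicate 1 the lower count was 1.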
